A study of Mus musculus with 6 samples.

Results

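The genes described here are 37 genes of fatty acid oxidation and targets of PPAR alpha, the nuclear receptor that switches on fatty acid burning. They were chosen by symbol from a list and all 37 were found among the 46603 genes of the count table. The list covers 20 genes of mitochondrial oxidation, 9 of peroxisomal oxidation, 2 of omega oxidation, 2 whose proteins occur in both organelles, 2 regulators, and Acsl1 and Fabp3, which activate and carry fatty acids. Bulk RNA-Seq was performed on CD11B+ cells taken with magnetic beads from whole digested kidneys of male mice aged 10 to 12 weeks, on day 3 after ischemia-reperfusion injury (IRI-AKI) by clamping of both renal pedicles for 28 minutes. The 3 PTEC DN RAR mice had the genotype PEPCK CRE+; Rosa26-LSL-RARaT403X and the 3 Cre– controls PEPCK CRE-; Rosa26-LSL-RARaT403X, with 1 library each. All 6 mice therefore carried the allele for a truncated, dominant negative retinoic acid receptor, and all were injured. In the Cre+ mice PEPCK-Cre switches that allele on in proximal tubular epithelial cells (PTECs), whereas the cells collected were the CD11B+ cells of the kidney. No uninjured kidney and no PTEC preparation is part of this comparison.

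Fatty acids are burned in steps that are split between organelles. Long chains enter mitochondria as carnitine esters and are shortened there by repeated dehydrogenation, hydration, oxidation and thiolysis, with the electrons passed to the respiratory chain. Peroxisomes shorten very long and branched chains and make hydrogen peroxide in doing so, and CYP4A enzymes of the endoplasmic reticulum start omega oxidation at the far end of the chain. Proximal tubules are among the tissues that depend most on this fuel, and their mitochondria, peroxisomes and PPAR alpha are abundant. Macrophages also burn fatty acids.

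Libraries held between 29318041 and 46517005 gene counts, so 3 counts corresponded to 0.0645 to 0.102 CPM (CPM being the count of a gene scaled to library size after TMM). Mitochondrially encoded transcripts took 5.03% to 8.77% of counts in Cre– controls and 10.38% to 12.08% in PTEC DN RAR mice. Rara stood at 45.4, 35.3 and 45.1 CPM in Cre– controls and at 30.7, 31.5 and 37.6 CPM in PTEC DN RAR mice (adjusted p = 0.0628 by edgeR). The transgene encodes a truncated form of its receptor, which according to the paper inhibits RARa, RARb and RARg. Cre switches it on in PTECs, not in the cells collected. Reads of the transgene are not counted separately, so the Rara values do not check the labels. All 10 macrophage markers were abundant in every library. Umod of the thick ascending limb was abundant too, at 1263, 865 and 1036 CPM in Cre– controls against 5002, 2894 and 5708 CPM. Of the 10 macrophage markers, 3 were lower in PTEC DN RAR mice (Itgam, Cd68 and Lyz2) and 7 were not called, with a median log2 fold change of -0.01. Itgam encodes CD11B, the antigen used to collect the cells. It measured 1737, 1959 and 1995 CPM in Cre– controls against 1366, 1303 and 980 CPM (adjusted p = 0.00818 by edgeR). The sum of all 10 was 28459 to 30569 CPM in Cre– controls and 23493 to 26363 CPM in PTEC DN RAR mice, and without Lyz2 it was 16594 to 17629 against 14514 to 18082 CPM. All 14 proximal tubule markers were higher in PTEC DN RAR mice, with a sum of 981 to 1157 CPM against 2256 to 3465 CPM, and so were all 5 thick ascending limb markers (1148 to 1530 against 4369 to 8319 CPM), all 4 distal convoluted tubule markers (145 to 179 against 635 to 1115 CPM) and all 6 endothelial markers (62.9 to 92.9 against 186 to 227 CPM). Neutrophil markers were lower for 5 of 7, with sums of 461 to 834 against 292 to 412 CPM. None of the 5 adipocyte markers reached the filter on low counts, and Lep was at 0 in every library. The part that these other cell types have in the levels below was not tested, and in bulk RNA fewer cells of a type and less RNA per cell cannot be told apart.

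Of the 37 genes, 24 were higher in PTEC DN RAR mice and none was lower (quasi-likelihood test of edgeR over 15440 genes, with an adjusted p under 0.05). The median log2 fold change was 0.46, against 0.04 over all genes tested. Over all genes, 23.6% were higher and 17.1% were lower by the same rule. Each of the 37 was over the filter on low counts, at 0.241 CPM, in all 6 libraries. The genes higher by at least 2-fold numbered 10, against 14.4% of all genes. In 26 genes every PTEC DN RAR library was above every control, against 29.2% of all genes, and in none was every one below, against 24.2%. Before adjustment, 24 genes were also higher and none was lower at p under 0.05, against 28.1% and 22% of all genes, and DESeq2 and limma-voom called none lower either. The log2 fold changes of the 37 ran from -0.06 in Slc25a20 to 3.76 in Cyp4a14, and 4 of those not called were below 0.

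**Figure D1:**
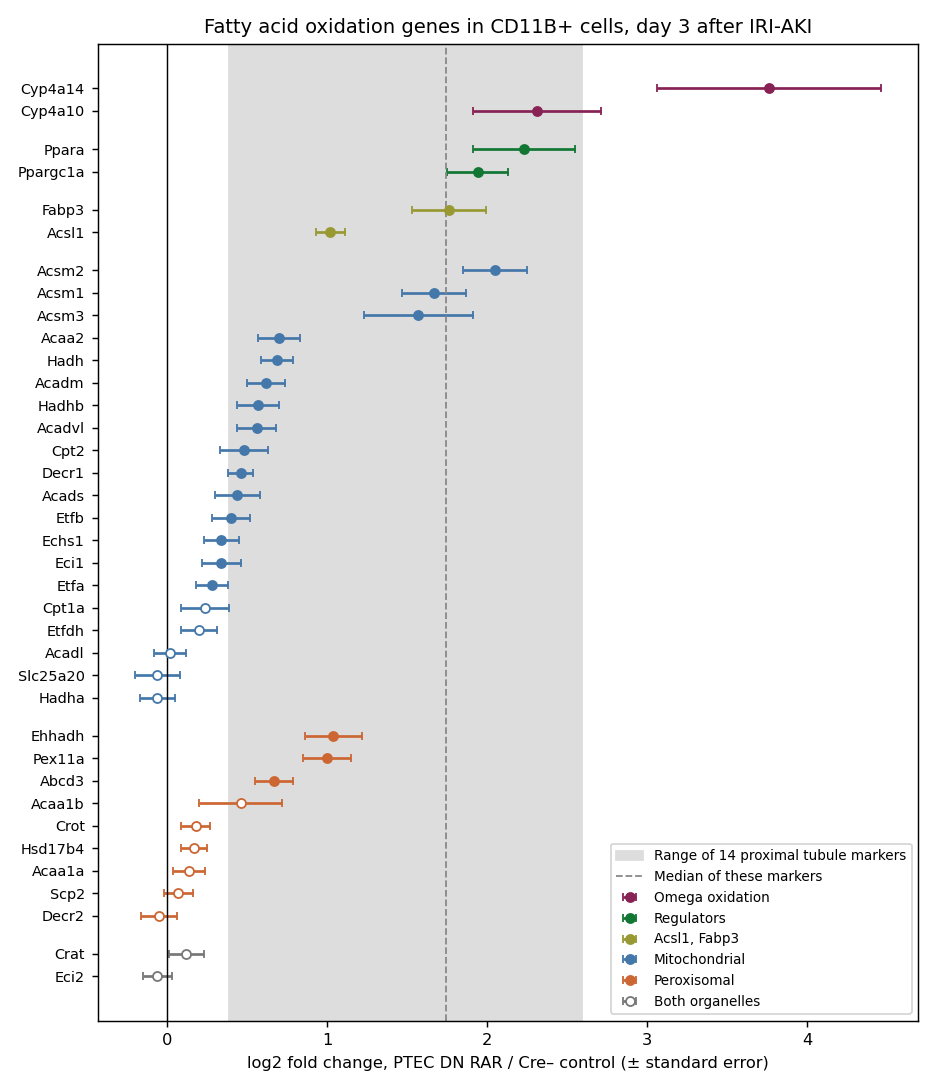
Log2 fold change of each of the 37 genes between PTEC DN RAR mice and Cre– controls with its standard error, grouped by compartment. Filled points passed an adjusted p of 0.05. The gray band spans the 14 proximal tubule markers, from 0.39 to 2.59, and the dashed line is their median of 1.74. Omega and regulator genes lie to the right of that line, and most mitochondrial and peroxisomal genes lie to its left.

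The regulators come first. PPAR alpha binds DNA together with a retinoid X receptor, usually at 2 copies of the hexamer AGGTCA in a row spaced by 1 base, and PGC-1 alpha is a coactivator that it shares with other receptors. Ppara (chromosome 15, 85734983 to 85802819) measured 1.13, 0.738 and 1.84 CPM in Cre– controls and 4.61, 6.95 and 5.89 CPM in PTEC DN RAR mice. The groups did not overlap, and the log2 fold change was 2.23 ± 0.32 (SE) with an adjusted p of 0.00126. Even so, Ppara had the lowest level per transcript length of the 37 genes in both groups, at 0.322 and 1.52 RPKM (counts scaled to library size and exon length). Ppargc1a (chromosome 5, 51454250 to 51567726), which encodes PGC-1 alpha, measured 10.1, 6.78 and 8.17 CPM in Cre– controls and 30.6, 26.8 and 38.9 CPM in PTEC DN RAR mice. No PTEC DN RAR library was under 26.8 CPM and no control exceeded 10.1 CPM, with a log2 fold change of 1.94 ± 0.19 and an adjusted p of 0.000303.

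The repeat that PPAR alpha and its partner recognize was looked for in the RefSeq promoters of these genes, from 250 bases before to 50 bases after each start (GRCm38.p6). Promoters were matched for 31 of the 37 genes, with no match for Hsd17b4, Cyp4a10, Cyp4a14, Decr1, Crat and Acaa2. The motif AGGTCANAGGTCA, searched on both strands, was in none of the 31 without a mismatch or with 1 mismatch, against 0.0481% and 0.644% of 27025 genes. With up to 2 mismatches among the 12 letters it was in the promoters of 3 genes, which is 9.68% against 4.4% of all genes. These 3 are shown because they hold the closest letters to the motif among the genes described, with the 13 bases of the match in capitals and 8 bases on either side, 5′ to 3′ on the strand of the gene. Echs1 and Slc25a20 have the repeat on the gene's own strand and Etfa on the opposite one.
Echs1: gcccgctcAGGTCACGGGTCCacccctta
Etfa: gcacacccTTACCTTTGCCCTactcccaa
Slc25a20: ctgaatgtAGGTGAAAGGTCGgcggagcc
The capitals lie at chr7:140116492-140116504 (minus strand gene), chr9:55512308-55512320 (minus strand gene) and chr9:108662142-108662154 (plus strand gene). The hexamer AGGTCA alone occurred at least 2 times in none of the 31 promoters, against 2.03% of all genes. These are matches of letters within a short window and say nothing of binding, and the log2 fold changes of the 3 genes were 0.34 for Echs1, 0.28 for Etfa and -0.06 for Slc25a20.

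Omega oxidation held the largest changes. Cyp4a14 (chromosome 4, 115486200 to 115496142), a fatty acid hydroxylase and a classical PPAR alpha target, measured 0.538, 1.21 and 3.96 CPM in Cre– controls and 12.1, 44.7 and 19.5 CPM in PTEC DN RAR mice. The controls themselves spread widely, and PTEC DN RAR library 2 was the highest by a wide margin. The log2 fold change was 3.76 ± 0.70, with an adjusted p of 0.00378, and came to 4.86 without control 3 and 3.07 without PTEC DN RAR library 2. Its neighbor Cyp4a10 (chromosome 4, 115518264 to 115533649) measured 2.92, 2.21 and 6.84 CPM in Cre– controls and 13.4, 26.0 and 19.7 CPM in PTEC DN RAR mice. Here too control 3 was the highest control and library 2 the highest of the PTEC DN RAR libraries, and the groups did not overlap (log2 fold change 2.31 ± 0.40, adjusted p = 0.00306). Of the 50-base words in Cyp4a10 transcripts, 29.8% also occur in other genes, mostly Cyp4a32 and Cyp4a31, and reads placed in more than 1 position are not counted, so its level is uncertain. For Cyp4a14 the shared share is 0.235%.

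**Figure D2:**
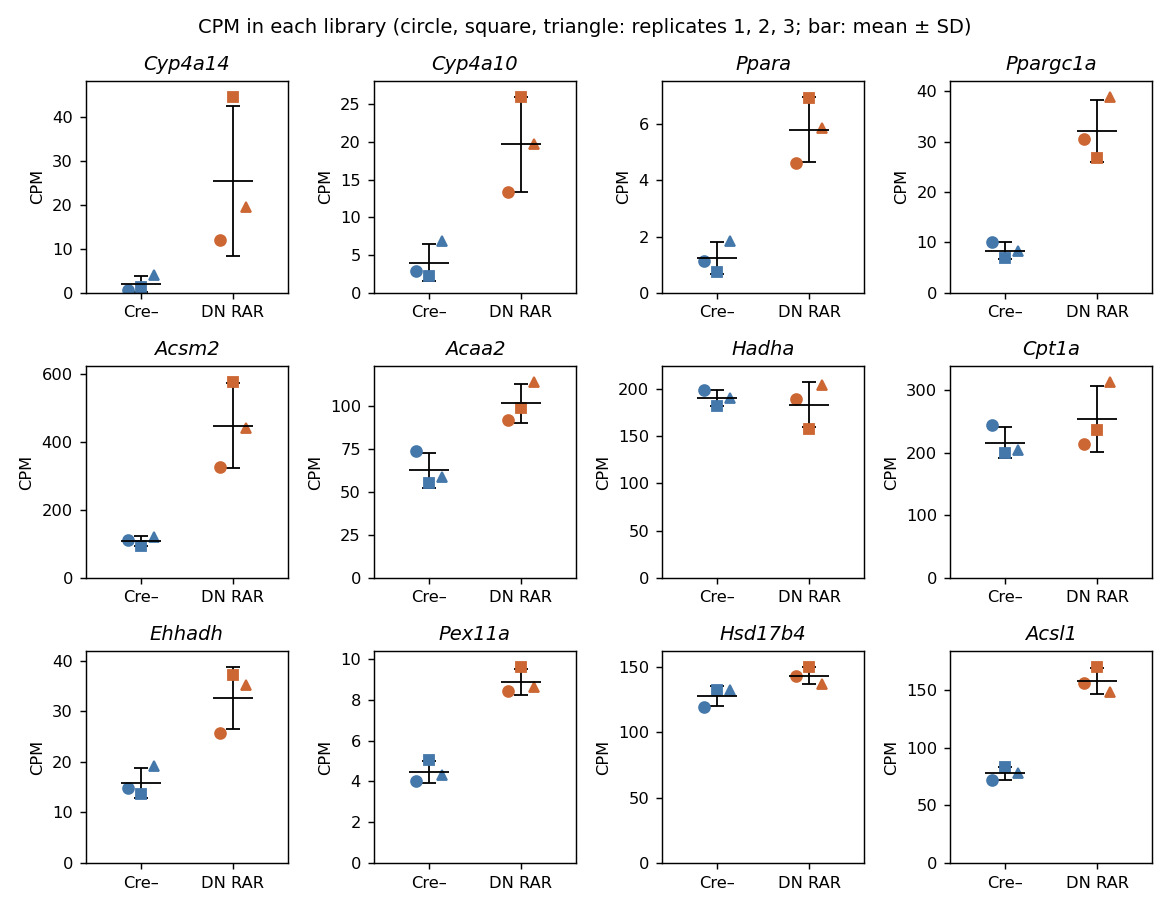
CPM of 12 of the genes in each library of Cre– controls (blue) and PTEC DN RAR mice (orange), on linear axes from 0, with the mean and SD of 3 libraries in black. Cyp4a14, Cyp4a10, Ppara and Acsm2 are highest in PTEC DN RAR library 2 (squares), Ppargc1a and Acaa2 are highest in library 3 (triangles), and for Hadha and Cpt1a the groups overlap.

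Entry into mitochondria had the lowest median log2 fold change of the mitochondrial steps, 0.24, with 1 of 3 genes higher (33.3%, against 23.6% of all genes). Cpt1a, the outer membrane carnitine palmitoyltransferase that sets the rate of entry, measured 244, 199 and 204 CPM in Cre– controls and 213, 236 and 313 CPM in PTEC DN RAR mice. The groups overlapped (log2 fold change 0.24 ± 0.15, adjusted p = 0.24). Slc25a20, the carrier that moves acylcarnitine across the inner membrane, measured 36.5, 30.8 and 32.5 CPM against 30.1, 27.3 and 38.2 CPM, also with overlap. Its log2 fold change was -0.06 ± 0.14, and 0.09 with scaling on macrophage markers. Cpt2, which releases acyl-CoA inside the matrix, measured 19.6, 18.5 and 21.7 CPM in Cre– controls and 23.3, 25.5 and 34.5 CPM in PTEC DN RAR mice. It was higher by a log2 fold change of 0.48 ± 0.15 (adjusted p = 0.0355), but that call was lost without any 1 of the 3 controls or without PTEC DN RAR library 3, with log2 fold changes from 0.25 to 0.59 when 1 library was left out. The call of Cpt2 was also lost with DESeq2 size factors in edgeR (0.44, adjusted p = 0.0553).

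In the beta-oxidation spiral itself, 9 of 11 genes were higher (81.8%, against 23.6% of all genes), with a median log2 fold change of 0.46. Acadm, the medium-chain acyl-CoA dehydrogenase, measured 50.2, 52.5 and 58.8 CPM in Cre– controls and 71.3, 82.6 and 94.0 CPM in PTEC DN RAR mice (log2 fold change 0.62 ± 0.12, adjusted p = 0.00401). All its PTEC DN RAR libraries were above all controls. Acadvl, the very-long-chain enzyme, measured 81.3, 71.4 and 77.2 CPM against 107, 99 and 133 CPM, again without overlap (0.56 ± 0.12, adjusted p = 0.00695). Of its 50-base words, 26.9% are shared with the overlapping gene Dvl2. Acadl, the long-chain enzyme and the gene with the highest level per length in Cre– controls (50.4 RPKM), measured 104, 101 and 98.2 CPM against 98.2, 92.3 and 117 CPM. Its groups overlapped, and its log2 fold change of 0.02 ± 0.10 came to -0.02 with DESeq2 size factors.

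Both subunits of the mitochondrial trifunctional protein, which carries out the later steps on long chains, were measured. Hadhb, the thiolase subunit, measured 10.4, 10.8 and 10.8 CPM in Cre– controls and 15.8, 13.9 and 17.9 CPM in PTEC DN RAR mice, with a log2 fold change of 0.57 ± 0.13 and an adjusted p of 0.00847. Hadha, its hydratase and dehydrogenase partner, measured 199, 182 and 190 CPM against 189, 157 and 204 CPM, with overlap. The log2 fold change of Hadha was -0.06 ± 0.11, and 0.09 with scaling on macrophage markers. The 2 genes lie head to head on chromosome 5, Hadha at 30118304 to 30155162 on the minus strand and Hadhb at 30155248 to 30184593 on the plus strand. Hadhb shares 19.7% of its words with other genes, mostly Gm13910, so its level is uncertain.

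Further enzymes of the spiral act mainly on shorter chains or on double bonds. Hadh, the short-chain hydroxyacyl-CoA dehydrogenase, measured 75.0, 62.2 and 70.4 CPM in Cre– controls and 102, 114 and 120 CPM in PTEC DN RAR mice (log2 fold change 0.69 ± 0.10, adjusted p = 0.00139). Acaa2, the mitochondrial thiolase, measured 74.0, 55.1 and 58.4 CPM against 91.7, 98.6 and 114 CPM (0.70 ± 0.13, adjusted p = 0.00398). Neither overlapped, and Acaa2 passed from rank 2 to rank 1 of the 37 genes by level per length, at 41.2 and 66.8 RPKM. Decr1, which handles double bonds, rose by 0.46 ± 0.08 (adjusted p = 0.00362). Acads, Echs1 and Eci1, the short-chain dehydrogenase, the enoyl-CoA hydratase and an isomerase, had smaller values of 0.44 ± 0.14, 0.34 ± 0.11 and 0.34 ± 0.12, with adjusted p of 0.0308, 0.0372 and 0.0463 by edgeR. These 3 calls depended on single libraries, since Acads and Eci1 passed in only 1 of the 6 fits that left out a library each and Echs1 in 2. Acads and Eci1 were lost without control 2, control 3 or any PTEC DN RAR library, and Echs1 was lost without control 2, control 3 or PTEC DN RAR library 1 or 3. In these 6 fits the log2 fold changes ran from 0.28 to 0.60 in Acads, from 0.21 to 0.41 in Eci1 and from 0.21 to 0.42 in Echs1. With DESeq2 size factors in edgeR the calls of Echs1 (adjusted p = 0.0555) and Eci1 (adjusted p = 0.068) were lost as well.

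Electron transfer flavoprotein takes the electrons from these dehydrogenases to the respiratory chain. Its alpha subunit, Etfa, measured 64.3, 62.1 and 65.2 CPM in Cre– controls and 70.5, 75.0 and 87.8 CPM in PTEC DN RAR mice (log2 fold change 0.28 ± 0.10, adjusted p = 0.0451). Its beta subunit, Etfb, measured 27.4, 21.6 and 23.4 CPM against 30.5, 29.3 and 35.9 CPM (0.40 ± 0.12, adjusted p = 0.0299). Neither overlapped, yet Etfa passed in 1 and Etfb in 2 of the fits that left out a library each: Etfa was lost without any 1 control or PTEC DN RAR library 2 or 3, and Etfb without control 2, control 3 or PTEC DN RAR library 1 or 3. Their log2 fold changes in those fits ran from 0.15 to 0.35 and from 0.27 to 0.50. The next enzyme, Etfdh, measured 49.3, 44.1 and 50.7 CPM against 50.7, 52.0 and 62.3 CPM (0.20 ± 0.11, adjusted p = 0.168). Of the words of Etfb, 44.8% are shared with other genes, nearly all with Gm45233.

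The 3 medium-chain acyl-CoA synthetases of the mitochondrial matrix, which are neighbors on chromosome 7 and are strongly expressed in proximal tubules, had the 3 largest log2 fold changes of the compartment. Acsm2 (119554340 to 119600690) measured 111, 93.1 and 120 CPM in Cre– controls and 327, 577 and 440 CPM in PTEC DN RAR mice (log2 fold change 2.05 ± 0.20, adjusted p = 0.000303). By level per length it passed from rank 13 of 37 genes in Cre– controls to rank 2 in PTEC DN RAR mice, from 14.5 to 60.4 RPKM. Acsm1 (119607026 to 119662515) measured 6.40, 4.86 and 4.78 CPM against 14.2, 21.6 and 15.3 CPM (1.67 ± 0.20, adjusted p = 0.000594). Acsm3 (119760923 to 119787513) measured 1.84, 3.12 and 3.17 CPM against 4.37, 9.83 and 9.79 CPM (1.57 ± 0.34, adjusted p = 0.00758). None of them overlapped between groups. Acsm3 shares 34.0% of its words with the overlapping gene Eri2. Without these 3, the mitochondrial genes higher in PTEC DN RAR mice were 12 of 17 (70.6%, against 23.6% of all genes), none of them by 2-fold (against 14.4%), with a median log2 fold change of 0.40 in place of 0.45. That count fell to 6 of 17 (35.3%) without control 2, control 3 or PTEC DN RAR library 3, where 17.8%, 15.2% and 19.1% of all genes were higher. In each of these fits the genes lost were Cpt2, Acads, Echs1, Eci1, Etfa and Etfb, which takes the whole compartment from 15 of 20 genes to 9.

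Of the peroxisomal genes, 3 of 9 were higher, a share of 33.3% against 23.6% of all genes, with a median log2 fold change of 0.18. The difference from the mitochondrial genes was not tested. Ehhadh (chromosome 16, 21761287 to 21787807), the bifunctional enzyme for straight chains and dicarboxylic acids, measured 14.8, 13.6 and 19.2 CPM in Cre– controls and 25.6, 37.1 and 35.1 CPM in PTEC DN RAR mice (1.04 ± 0.18, adjusted p = 0.00258). Pex11a (chromosome 7, 79735957 to 79743131), which promotes division of peroxisomes, measured 4.0, 5.07 and 4.31 CPM against 8.41, 9.61 and 8.65 CPM (1.00 ± 0.15, adjusted p = 0.00168). Abcd3, a fatty acid importer of the peroxisomal membrane, measured 45.6, 42.9 and 52.2 CPM against 64.6, 73.1 and 86.4 CPM (0.67 ± 0.12, adjusted p = 0.00381). These 3 did not overlap between groups.

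The other 6 peroxisomal genes did not pass the test, with log2 fold changes from -0.05 in Decr2 to 0.46 in Acaa1b. Hsd17b4, the second bifunctional enzyme and the most highly counted peroxisomal gene, measured 119, 132 and 132 CPM in Cre– controls and 143, 150 and 137 CPM in PTEC DN RAR mice. Its groups did not overlap, but the log2 fold change was 0.17 ± 0.08 (adjusted p = 0.131). It was called only with scaling on macrophage markers among the settings tried (0.30, adjusted p = 0.0465 by edgeR). Ehhadh and Hsd17b4 catalyze the same pair of steps on different substrates, and by edgeR the former passed and the latter did not, although the difference between them was not tested. The thiolase Acaa1a measured 81.7, 69.2 and 67.7 CPM against 81.7, 76.2 and 82.7 CPM, with overlap (0.14 ± 0.10). Its near copy Acaa1b measured 4.0, 3.59 and 6.68 CPM against 5.38, 7.97 and 6.34 CPM (0.46 ± 0.26, adjusted p = 0.184), and was called without control 3 (0.74, adjusted p = 0.0481 by edgeR). Acaa1b shares 39.6% of its words with other genes, mostly Acaa1a, so the split of reads between them is uncertain. The octanoyltransferase Crot and the sterol carrier Scp2 had log2 fold changes of 0.18 and 0.07, and Decr2 reached 0.10 with scaling on macrophage markers. Of the words of Scp2, 29.7% occur in other genes, mostly Scp2-ps2, so its level is uncertain. The proteins of 2 genes, the carnitine acetyltransferase Crat and the isomerase Eci2, occur in both organelles. Crat measured 92.4, 74.2 and 90.3 CPM in Cre– controls and 95.4, 84.8 and 99.2 CPM in PTEC DN RAR mice (0.12 ± 0.11), and Eci2 measured 41.3, 39.4 and 42.7 CPM against 38.8, 36.3 and 43.3 CPM (-0.06 ± 0.09, and 0.08 with scaling on macrophage markers). Both overlapped between groups and neither passed the test.

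Acsl1, a long-chain acyl-CoA synthetase, and Fabp3, a fatty acid binding protein, were both higher. Acsl1 (chromosome 8, 46471037 to 46536051) measured 72.2, 83.3 and 77.8 CPM in Cre– controls and 156, 170 and 148 CPM in PTEC DN RAR mice. Of the 10 genes higher by at least 2-fold it had the smallest standard error, with a log2 fold change of 1.02 ± 0.09 and an adjusted p of 0.000227. Fabp3 measured 3.48, 2.15 and 2.31 CPM against 8.77, 7.68 and 10.6 CPM (1.76 ± 0.23, adjusted p = 0.000794). The groups did not overlap, but 37.3% of the words of Fabp3 occur in other genes, mostly Fabp3-ps1.

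The 3 routes were then set side by side within each library. The 20 mitochondrial genes summed to 1357, 1169 and 1268 CPM in Cre– controls and to 1676, 1933 and 2084 CPM in PTEC DN RAR mice, which is 1.5 times the control mean. The 9 peroxisomal genes summed to 397, 399 and 423 CPM against 464, 495 and 508 CPM, or 1.2 times. The 2 omega genes summed to 3.46, 3.42 and 10.8 CPM against 25.4, 70.7 and 39.2 CPM, or 7.65 times, which became 13.1 times without control 3. No sum overlapped between groups. Much of the mitochondrial gain was Acsm1, Acsm2 and Acsm3, whose sum was 120, 101 and 128 CPM against 346, 609 and 465 CPM, and the other 17 genes together came to 1.24 times the control mean. For each 100 CPM of mitochondrial genes there were 29.3, 34.1 and 33.4 CPM of peroxisomal genes in Cre– controls and 27.7, 25.6 and 24.4 CPM in PTEC DN RAR mice. Omega genes came to 0.255, 0.293 and 0.852 CPM for each 100 mitochondrial CPM in Cre– controls and to 1.52, 3.66 and 1.88 CPM in PTEC DN RAR mice, a ratio of means of 5.04 that became 8.59 without control 3. The order of the medians, omega above mitochondrial above peroxisomal, is a description of genes chosen with earlier results known and was given no test.

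**Figure D3:**
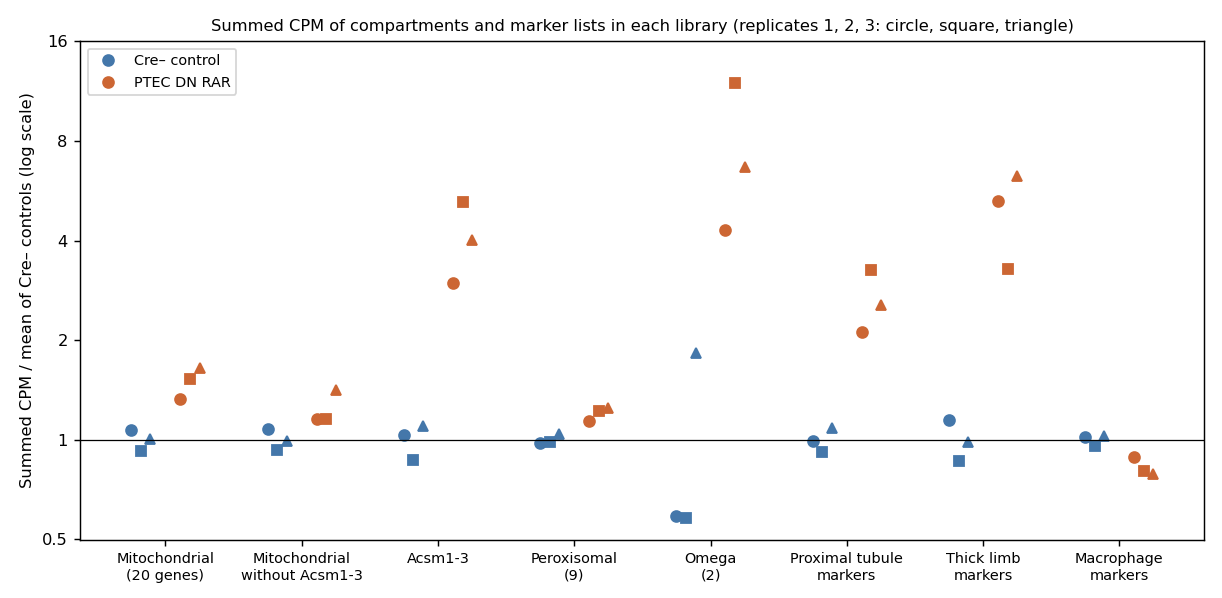
Summed CPM of each compartment and marker list in every library, divided by the mean of the 3 Cre– controls, on a log scale. The omega genes of PTEC DN RAR mice average 7.65 times the control mean, the proximal tubule markers 2.64 times, the thick ascending limb markers 4.94 times, the mitochondrial genes 1.5 times, the peroxisomal genes 1.2 times, and the macrophage markers 0.827 times.

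Because proximal tubule markers moved with genotype, the sums were also expressed per 100 CPM of these 14 markers, none of which is among the 37 genes. Mitochondrial genes then came to 129, 119 and 110 in the libraries of Cre– controls, against 74.3, 55.8 and 76.6 in those of PTEC DN RAR mice. Peroxisomal genes came to 37.6, 40.7 and 36.6 against 20.6, 14.3 and 18.7. No PTEC DN RAR library reached a control in either, so these transcripts gained less than the tubule markers did. Omega genes went the other way, from 0.328, 0.349 and 0.934 to 1.13, 2.04 and 1.44 (2.86 times, and 4.54 times without control 3), and so did the 3 Acsm genes together, from 11.3, 10.3 and 11.0 to 15.3, 17.6 and 17.1. Gatm, however, made up 376 of the 1064 CPM of the mean marker sum in Cre– controls. Its mean rose 1.31 times, against 2.64 times for the sum, so these gains over the markers would be smaller without it. Whether they, or the ratios of single genes below, hold without Gatm was not computed. Gene by gene, the ratio to the markers fell below all controls in the 3 PTEC DN RAR libraries for 27 of the 37 genes, lay above them for 4 (Acsm2, Cyp4a10, Cyp4a14 and Ppara) and overlapped for 6. Over all genes tested, 76.6% fell below all controls by this ratio and 1.94% lay above them, so the count of 27 is near that of genes in general. Per 1000 CPM of macrophage markers, by contrast, mitochondrial genes were at 44.7, 41.1 and 41.5 in the controls and at 63.6, 80.4 and 88.7 in PTEC DN RAR mice, and peroxisomal genes at 13.1, 14 and 13.8 against 17.6, 20.6 and 21.6. With Lyz2 left out of the markers, a choice made after seeing the data, the ratios of means were 1.54 for mitochondrial and 1.23 for peroxisomal genes in place of 1.83 and 1.46.

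The mitochondrial and peroxisomal sums were thus higher relative to macrophage transcripts and lower relative to tubule transcripts. Of the 37 log2 fold changes, 6 lay above the median of the proximal tubule markers (1.74), against 4.8% of all genes. Within the range of these markers, 0.39 to 2.59, lay 21 of the 37, against 30% of all genes, but the lower end is Gatm alone. Without it, a choice made after seeing the data, the range of 0.77 to 2.59 held 10, against 19.6% of all genes. When the mean of the proximal tubule markers entered the edgeR fit as a covariate, none of the 37 genes was called higher or lower, and over all genes 0 were higher and 1 was lower. Unadjusted p under 0.05 then was found for 2 of the 37 genes in the higher and for none in the lower direction (5.41% and 0%, against 2.88% and 1.33% of all genes), and the omega median was -1.47. In each PTEC DN RAR mouse the marker mean exceeded that of all controls, so in these 6 libraries genotype and the marker level cannot be told apart. Scaling on macrophage markers in place of TMM left 25 of the 37 genes higher and none lower, and over all genes it gave 4142 higher and 984 lower in place of 3640 and 2636, while the median of all genes moved from 0.04 to 0.17.

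The 3 PTEC DN RAR libraries were not alike in tubule markers, and the genes followed different orders among them. Proximal tubule and endothelial marker sums were highest in library 2, then 3, then 1. Single proximal tubule markers did not all share the order of their sum. Kap and Ggt1 ran 3, 2, 1, Slc7a13 ran 3, 1, 2, and Slc13a3 and Miox ran 2, 1, 3, while the others ran as the sum. The order 2, 3, 1 was found in 9 of the 37 genes, namely Acsm1, Acsm2, Acsm3, Ehhadh, Acaa1b, Pex11a, Cyp4a10, Cyp4a14 and Ppara, against 15.7% of all genes tested. Of the 24 genes called higher 8 had it, against 18.9% of all genes called higher. Thick ascending limb and distal tubule marker sums ran 3, 1, 2, and 13 genes did so too, Ppargc1a, Fabp3, Acadvl, Hadha and Hadhb among them, against 20.2% of all genes. Of the 24 called higher 6 had it, against 32.5%. The order 3, 2, 1 was found in 11 genes, most of them mitochondrial, such as Cpt1a, Cpt2, Acadm, Hadh and Acaa2, against 14.2% of all genes, and in 7 of the 24 called higher, against 19.1%. The order of the sum of all 10 macrophage markers, 1, 2, 3, which Lyz2 was needed to give, was found in none, against 15.9% of all genes and 6.79% of those called higher. Without Lyz2 that sum ran 2, 1, 3, with libraries 2 and 1 nearly level (18082 and 18062 CPM). This order was found in Hsd17b4 and Acsl1, against 17.8% of all genes. Of the 24 called higher only Acsl1 had it, against 15.5%. With 3 libraries these orders are a description only.

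**Figure D4:**
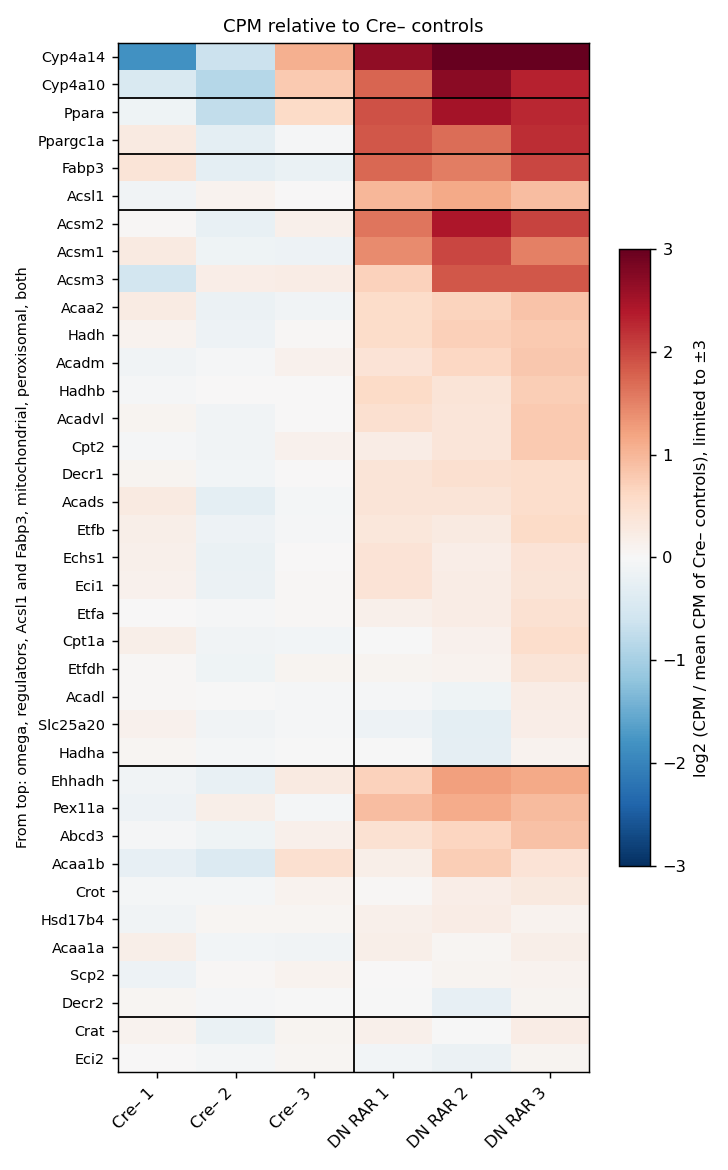
Log2 of the CPM of each of the 37 genes relative to the mean of the Cre– controls in all 6 libraries, with colors limited to ±3, which Cyp4a14 exceeds in PTEC DN RAR libraries 2 and 3. The upper rows (omega genes, regulators, Acsl1, Fabp3 and the 3 Acsm genes) are red in every PTEC DN RAR library, most other mitochondrial genes are pale red, Acadl, Slc25a20 and Hadha are near white or pale blue in some PTEC DN RAR libraries, and most peroxisomal genes are near white.

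The wider pathway was read from a further list of 87 genes, of which 80 passed the filter, 41 were higher and 4 were lower in PTEC DN RAR mice. The share higher was 51.2%, against 23.6% of all genes higher and 17.1% lower, which is also the background for the lists that follow. Their median log2 fold change was 0.45. Of the 16 further peroxisomal genes, 7 were higher, led by Acot12, a thioesterase (1.67 ± 0.34, adjusted p = 0.00534), and Acox2, the branched-chain oxidase (1.52 ± 0.47, adjusted p = 0.0318), a call that was lost without any 1 library other than control 3 (1.10 to 2.26 over these fits). Abcd2, a peroxisomal importer of very long chains, was lower by contrast (-0.54 ± 0.11, adjusted p = 0.00636). Among 15 further mitochondrial genes 12 were higher. The largest of them was Cpt1b, the muscle form of the carnitine enzyme, at 0.179, 0.268 and 0.190 CPM against 1.6, 0.990 and 1.72 CPM (2.75 ± 0.37, adjusted p = 0.001), which was over the filter in 1 of 3 controls and in all PTEC DN RAR libraries, so it entered the test only through the group where it was high. Next came the synthetase Acsm5 (1.53 ± 0.25, adjusted p = 0.00213).

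All 5 genes listed for ketone body metabolism were higher, with a median log2 fold change of 0.88. The dehydrogenases Bdh1 (2.04 ± 0.18, adjusted p = 0.000211) and Bdh2 (1.82 ± 0.17, adjusted p = 0.000253) changed most. Of 7 further omega oxidation genes 6 were higher, with Cyp4b1 at 47.5, 24.7 and 31.5 CPM in Cre– controls and 158, 261 and 209 CPM in PTEC DN RAR mice (2.60 ± 0.26, adjusted p = 0.000313). Cyp4a12a was higher by 2.13 ± 0.47 (adjusted p = 0.00769), and its reads shared with other genes were not assessed.

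Of 10 genes of uptake, binding and activation 2 were higher and 2 lower, and of 13 lipid droplet and switch genes 3 were higher and 1 lower, shares that lie near or below those of all genes for a rise (23.6%). Cd36, a fatty acid uptake receptor of macrophages and other cells, measured 667, 691 and 744 CPM in Cre– controls and 346, 351 and 404 CPM in PTEC DN RAR mice (-0.93 ± 0.10, adjusted p = 0.000388). Plin2, which coats lipid droplets and is a PPAR target, measured 441, 329 and 360 CPM against 165, 152 and 219 CPM (-1.08 ± 0.16, adjusted p = 0.00149). Fabp5, a fatty acid binding protein of macrophages, measured 50.8, 26.8 and 38.9 CPM against 11.4, 6.95 and 8.14 CPM (-2.14 ± 0.26, adjusted p = 0.000599). None of these 3 overlapped between groups, and each stayed lower in every fit that left out a library. The 2 genes of uptake, binding and activation that were higher, named here after their values were seen, were Fabp4, a fatty acid binding protein of fat cells and macrophages, and Slc27a4, a fatty acid transport protein. Fabp4 measured 6.69, 7.15 and 5.20 CPM against 11.1, 12.4 and 8.35 CPM (0.74 ± 0.19, adjusted p = 0.0148), and its call was lost without control 3 or PTEC DN RAR library 2. Slc27a4 measured 45.7, 42.6 and 47.9 CPM against 54.3, 55.1 and 56.9 CPM (0.29 ± 0.08, adjusted p = 0.0213), and passed in 2 of the 6 fits that left out a library, those without control 1 or PTEC DN RAR library 1. Its call was also lost without the filter (0.26, adjusted p = 0.0692 by edgeR).

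Other commonly cited PPAR alpha targets follow. Pdk4, the kinase that turns glucose oxidation down, measured 7.07, 3.99 and 4.28 CPM in Cre– controls and 6.28, 7.05 and 15.9 CPM in PTEC DN RAR mice, with overlap (0.92 ± 0.37, adjusted p = 0.0778 by edgeR and 0.0367 by DESeq2). With 1 library left out it ran from 0.33 to 1.23 and passed in 2 of 6 fits, those without control 1 or PTEC DN RAR library 1, and it also passed without the filter (adjusted p = 0.0317). Angptl4, an inhibitor of lipoprotein lipase, was at 0.42 ± 0.31 (adjusted p = 0.302). Vnn1, a pantetheinase, was higher (1.15 ± 0.27, adjusted p = 0.0099), as was Acacb, the acetyl-CoA carboxylase whose product malonyl-CoA blocks carnitine entry, at 5.97, 6.64 and 7.10 CPM against 34.9, 24.6 and 44.9 CPM (2.41 ± 0.21, adjusted p = 0.000219). Of 14 nuclear receptors and coactivators 6 were higher, with the largest values in Hnf4a (1.94 ± 0.23, adjusted p = 0.000552), a receptor of proximal tubule and liver cells, and Esrrg (1.76 ± 0.17, adjusted p = 0.000284), an orphan receptor that regulates mitochondrial genes. Neither Ppard (-0.05 ± 0.12) nor Pparg (0.46 ± 0.20), the other PPAR genes, passed the test.

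**Figure D5:**
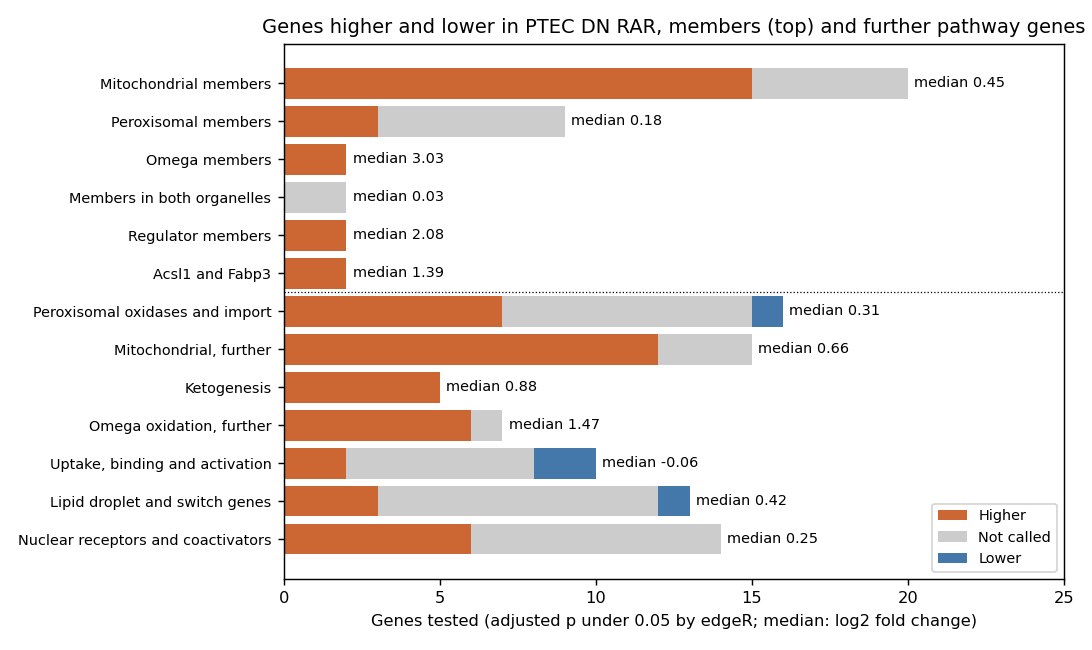
Number of genes higher (orange), lower (blue) and not called (gray) in PTEC DN RAR mice by edgeR, for the compartments of the 37 genes (above the dotted line) and the further pathway lists (below it), with the median log2 fold change of each. Lower genes appear in 3 of the lists: peroxisomal oxidases and import (1), uptake, binding and activation (2), and lipid droplet and switch genes (1).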

How the data were processed

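The authors deposited raw read counts per Ensembl gene (polyA-selected RNA, 1 library per mouse). The submitters' processing notes name STAR 2.5.0a, HTSeq 0.6.1, edgeR, limma and GRCm38. Reads aligned to more than 1 place, 42.93% to 47.75% of alignments, are left out of such counts, which undercounts genes with near copies. Whether counting used strand is not given in the sources used here. Of 46612 gene lines 9 repeats were collapsed, and the table held 0 columns of other samples.

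The 37 genes and the further lists were chosen with earlier results of these data known. Groups follow the labelled genotype. In R 4.3.3, edgeR 4.0.16 was used to filter (filterByExpr), to scale by TMM and for its quasi-likelihood test, and p-values were adjusted by Benjamini-Hochberg. The SE is the log2 fold change divided by the square root of F. RPKM used exon lengths of GENCODE M21 (GRCm38), also the source of coordinates and of the 50-base words shared between genes. Promoters are from RefSeq. Figures and tables used Python 3.11, pandas 2.3.3 and matplotlib 3.10.9. The code was tested on simulated counts. Values in all libraries are given for omega and regulator genes and, per class, for up to 5 called genes with the largest change and up to 3 with the highest CPM, and for Plin2, Cd36 and Pdk4. Of the further genes, Pdk4, Angptl4, Plin2, Cd36 and, per list, the 2 largest calls were to be named. Some genes of the further lists are not reported here. Abcd2, Ppard, Pparg and the remaining library values were added after their values were seen. Library orders were also added after seeing the data. Libraries of the same genotype differed by a chi-square of 29.6 or more per degree of freedom, and none was taken for a repeat. Nothing says beyond the mouse labels how independent the libraries are, so p-values measure the spread between these samples. Alternatives were DESeq2 1.42.0, voom of limma 3.58.1, other filters and scalings, a replicate block, the tubule marker mean as covariate, and leaving out each library. Protein sequences were not analysed here.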

Additional observations from a re-analysis of the deposited data

How the results depend on the processing

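The number of the 37 genes called higher, 24 as reported, was 20 to 25 under DESeq2, limma-voom, either other filter and the other scalings, and 18 to 22 when 1 library was left out; 18 of the 24 were called in all of these fits, Hsd17b4 was gained with scaling on macrophage markers and Acaa1b without control 3, and none of the 37 was called lower. The same numbered samples did not vary together (correlations -0.01, 0.21 and 0.03), so the replicate block is only an alternative. With the replicate block 24 genes were higher, none lower, and no call changed. Leaving out 1 library gave medians of 0.38 to 0.57 (all 37), 0.31 to 0.50 (mitochondrial), 0.15 to 0.24 (peroxisomal) and 2.56 to 3.87 (omega). Scaling on macrophage markers moved the first 3 to 0.61, 0.59 and 0.32, and turned Slc25a20 to 0.09, Hadha to 0.09, Decr2 to 0.10 and Eci2 to 0.08. Acadl turned to -0.02 with DESeq2 and with its size factors and to -0.00 without a filter. Uncalled genes changed sign when 1 library was left out: Acadl (-0.13 to 0.09), Crat (-0.01 to 0.18), Decr2 (-0.16 to 0.04), Hadha (-0.18 to 0.04), Scp2 (-0.00 to 0.10) and Slc25a20 (-0.26 to 0.04). With the tubule marker mean as a covariate 0 genes were called and the medians were 0.09 (all), 0.18 (mitochondrial), 0.03 (peroxisomal) and -1.47 (omega). The log2 fold changes of single genes turned to -0.08 in Cpt1a, 0.08 in Slc25a20, 0.34 in Hadha, -0.11 in Etfdh, -0.35 in Acsm3, -0.50 in Ehhadh, -1.60 in Acaa1b, 0.34 in Decr2, -0.26 in Crot, -0.12 in Scp2, -1.22 in Cyp4a10, -1.73 in Cyp4a14, -0.16 in Ppara, -0.56 in Angptl4, -1.54 in Acot12, -1.79 in Acox2, -0.49 in Acsm5, -2.21 in Cyp4a12a, -1.11 in Vnn1 and -0.27 in Hnf4a, none of them called. That covariate was higher in all PTEC DN RAR libraries than in any control. Where else a value moved, the cause was not tested. At 3 libraries a group, small differences such as those of Etfa (0.0519 by limma-voom) and Eci1 (0.059 by DESeq2, adjusted p) lie at the limit of what could be called.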
